A study of Arabidopsis thaliana with 8 samples.

Results

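NLR proteins, nucleotide-binding leucine-rich repeat receptors, are the intracellular immune receptors of plants. They detect pathogen effectors inside the cell, directly or by watching over the host proteins that effectors attack, and an activated receptor often ends in local cell death. Their genes stand in tandem clusters and are among the genes that differ most between accessions of a species. The 6 NLR genes described here are AT4G19500, AT4G19530, AT3G44630, AT1G63880, AT4G16880 and LOV1 (AT1G10920). They are 6 of 13286 genes with a single-gene probe set and were chosen by their signals in these same arrays, which differed between 2 Arabidopsis accessions. Their accession differences are therefore given as a description, without a test. Receptors with a TIR domain at the start of the protein signal through EDS1 and its partners, and co-chaperones such as SGT1 keep many receptors stable.

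Whole plants of Cal-0, which the labels call a calcicole (a plant found on chalk and limestone), and of Col-4, called a non-calcicole, were profiled on 4 ATH1 arrays each. Both accessions were at developmental stage 3.90. They had been stratified for 48 hours at 4 degrees Celsius and raised on sand in a growth room at 23 degrees, fed 0.5 times Long Ashton solution with CaCl2 at 1 mM. No calcium treatment and no pathogen distinguished the groups. The median signal of an array was 44.0 to 50.1, and precision is limited by how few arrays there are. In whole plants, fewer cells that express a gene and less of its RNA per cell cannot be told apart. The labels do not say that replicates came from separate plants or cultures, so errors and p-values cover only how far these samples differ, which could be technical variation. No genome sequence of Cal-0 was analysed here, and whether differences in sequence between the accessions affect binding to the probes was not tested.

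As a check of the tissue label, both leaf and root genes were measured. For RCA, rubisco activase, Cal-0 arrays averaged 5130 ± 683 and Col-4 arrays 5200 ± 992. For PYK10, a beta-glucosidase gene of roots, the means were 788 ± 330 and 605 ± 230 (SD, n = 4 each). The root marker AT5G17820 showed the widest difference of the 5 markers analysed, with means of 156 ± 45.2 (Cal-0) and 96.1 ± 37.9 (Col-4; log2 difference 0.64, SE 0.25, limma adjusted p = 0.24, unadjusted p = 0.0287). LHCB4.1, of the leaf's light-harvesting complex, differed by -0.20 and EXPA7, a root hair expansin, by 0.02. None of the 5 passed the limma test between accessions, and no flower or seed marker was analysed here.

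All 6 NLR genes had groups without overlap, 5 lower in Cal-0 and 1 higher, where the background over tested probe sets was 10.3% without overlap, 5.43% lower and 4.89% higher in Cal-0. This count follows from how the genes were chosen. Each passed the filter, which asked for 25 or more as the mean of all arrays. For AT4G19500, AT3G44630 and AT4G16880 only the Col-4 mean exceeded 25, and for LOV1 only the Cal-0 mean did, so these 4 entered through the accession in which they were high.

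**Figure D1:**
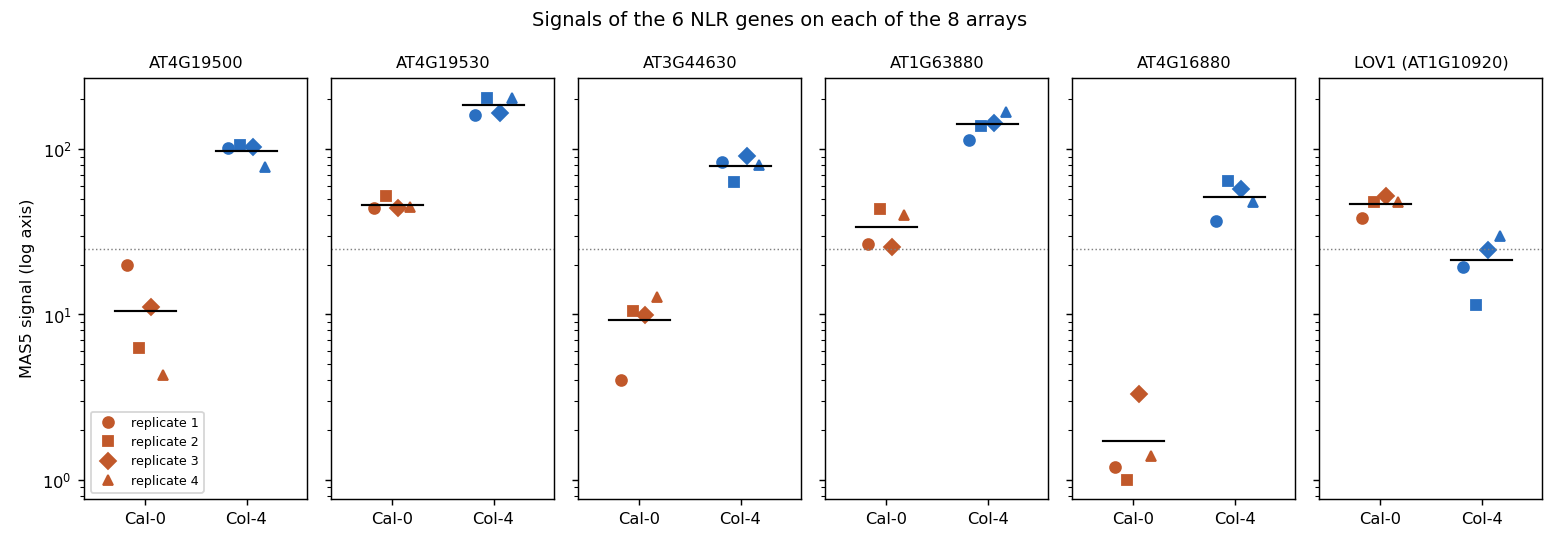
MAS5 signal (log axis) of each NLR gene on each array, with a symbol for each replicate, a line at the mean of each accession and a dotted line at the filter value of 25. Cal-0 lies below Col-4 in every panel except that of LOV1, which shows the reverse; AT4G16880 lies between 1.0 and 3.3 in Cal-0.

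AT4G19500 and AT4G19530 stand 3 places apart in one tandem cluster of NLR genes. AT4G19500 had signals of 20.0, 6.3, 11.1 and 4.3 in Cal-0 and of 101.2, 105.5, 102.5 and 78.3 in Col-4 (replicates 1 to 4). The Cal-0 values scattered widely at the low end, and the lowest Col-4 array was 3.92 times the highest Cal-0 array. The difference of log2(signal + 16), Cal-0 minus Col-4, was -2.12 (SE 0.19, n = 4 arrays each). AT4G19530 had signals of 44.1, 51.8, 44.0 and 44.5 in Cal-0 and of 160.4, 204.8, 166.5 and 205.1 in Col-4. Both groups were tight, the groups did not overlap, and every Cal-0 array exceeded the filter value of 25. Its log2 difference was -1.68 (SE 0.13).

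AT4G19510 and AT4G19520 are the NLR genes between these, and neither was called. AT4G19510 was at 11.6, 21.5, 10.8 and 24.8 in Cal-0 and at 34.8, 24.7, 33.9 and 46.5 in Col-4, so the groups met at the values of 24.8 and 24.7. Its log2 difference was -0.63 (SE 0.18, limma adjusted p = 0.0889). In the fit that blocks on replicate it passed (limma adjusted p = 0.0369). AT4G19520 was at 15.0 in Col-4 replicate 4 and at or below 3.3 on the other arrays, too low for a test. The genes flanking the cluster that had a probe set, AT4G19460, AT4G19470, AT4G19480, AT4G19550, AT4G19570 and AT4G19580, were below the filter as well, and their groups overlapped.

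AT3G44630 lies 20 places from RPP1, a gene named for recognition of the downy mildew pathogen, in the annotation order. Its signals were 4.0, 10.5, 9.9 and 12.8 in Cal-0 and 83.5, 62.9, 91.4 and 80.5 in Col-4. Each Cal-0 array was near the bottom of the scale, and the lowest Col-4 array was 4.91 times the highest Cal-0 array. The log2 difference was -1.92 (SE 0.16). AT3G44400, another NLR gene of this cluster but 37 places from AT3G44630, was low in both accessions. It was at 0.5 to 7.7 in Cal-0 and 6.6 to 12.3 in Col-4. The 4 tested genes upstream in annotation order did not pass: AT3G44620, the adjacent gene, had means of 169 ± 26.6 (Cal-0) and 208 ± 26.2 (Col-4; log2 difference -0.28, SE 0.15, limma adjusted p = 0.44). CYP71 (AT3G44600), a cyclophilin with WD40 repeats that acts on chromatin, differed by -0.04.

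AT1G63880 lies 21 places from RLM1, a gene named for resistance to the fungus Leptosphaeria maculans. Its signals were 26.8, 43.4, 25.5 and 40.0 in Cal-0 and 114.1, 137.9, 143.0 and 168.7 in Col-4. The Cal-0 arrays fell into a lower pair, replicates 1 and 3, and a higher pair, replicates 2 and 4, all under every Col-4 array. The log2 difference was -1.66 (SE 0.17).

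In this cluster AT1G63730, AT1G63740 and AT1G63750 lie 21, 20 and 18 places from AT1G63880. Of the other NLR genes of the cluster with a probe set, only AT1G63730 passed the filter and was tested. AT1G63870, the adjacent one, was at 14.8 to 36.4 in Cal-0 and 9.7 to 35.8 in Col-4, ranges that overlap almost fully. AT1G63730 had means of 56.5 ± 3.62 (Cal-0) and 53.8 ± 5.25 (Col-4; log2 difference 0.06, SE 0.12, limma adjusted p = 0.905). AT1G63740 was higher in Cal-0, at 32.9, 34.8, 26.6 and 32.0 against 13.8, 17.8, 18.4 and 22.4 in Col-4. Its groups did not overlap, but its mean was under 25, and without the filter it did not pass (log2 difference 0.48, SE 0.12, limma adjusted p = 0.0716). AT1G63750 was at or below 4.4 on all arrays except Cal-0 replicate 3, at 25.5.

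AT4G16880 lies in the cluster of RPP4, RPP5 and SNC1, immune receptor genes studied for downy mildew resistance and for autoimmunity when SNC1 is overactive. Its signals were 1.2, 1.0, 3.3 and 1.4 in Cal-0 and 36.9, 64.0, 57.1 and 47.7 in Col-4. The Cal-0 signals were close to 0 on every array, so the size of the difference depended on the pseudocount more than for the other genes. The log2 difference was -1.91 (SE 0.15) with the pseudocount of 16, -4.31 with 1 and -0.96 with 50.

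AT4G16870, a gene annotated as a pseudogene that starts 2 places before AT4G16880, was also lower in Cal-0. It had signals of 53.1, 81.5, 52.7 and 47.2 in Cal-0 and of 211.4, 160.4, 115.9 and 151.5 in Col-4, without overlap. The log2 difference was -1.23 (SE 0.19, limma adjusted p = 0.00319). It was not among the genes chosen for their difference, and it passed in each of the other fits run, at limma adjusted p of 0.000731 to 0.0157 over those that take arrays 1 to 8 together. The NLR genes AT4G16900 and AT4G16920 of the cluster were too low to be tested. AT4G16900 was at 0.5 to 0.9 in Cal-0 and 0.8 to 9.1 in Col-4, and AT4G16920 at 3.7 to 11.2 and 12.9 to 28.8, the latter without overlap. RPP4, RPP5 and SNC1 themselves were not analysed here.

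LOV1 is the NLR gene behind sensitivity to victorin, a toxin of the fungus Cochliobolus victoriae, and the toxin needs this receptor to act. Its signals were 38.4, 47.8, 51.7 and 47.9 in Cal-0 and 19.4, 11.4, 24.4 and 30.0 in Col-4. All Cal-0 arrays were above all Col-4 arrays, but the gap was narrow, the lowest Cal-0 array being 1.28 times the highest Col-4 array. The log2 difference was 0.76 (SE 0.17). The 3 tested neighbours of LOV1, AT1G10890, AT1G10900 and the DNA helicase gene RECQ4A (AT1G10930), had log2 differences of 0.12, -0.12 and -0.04 and did not pass. AT1G10875, 5 places away and below the filter, was higher in Cal-0 without overlap, at 21.6 to 34.9 against 15.5 to 19.8, but did not pass without the filter (limma adjusted p = 0.145).

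**Figure D2:**
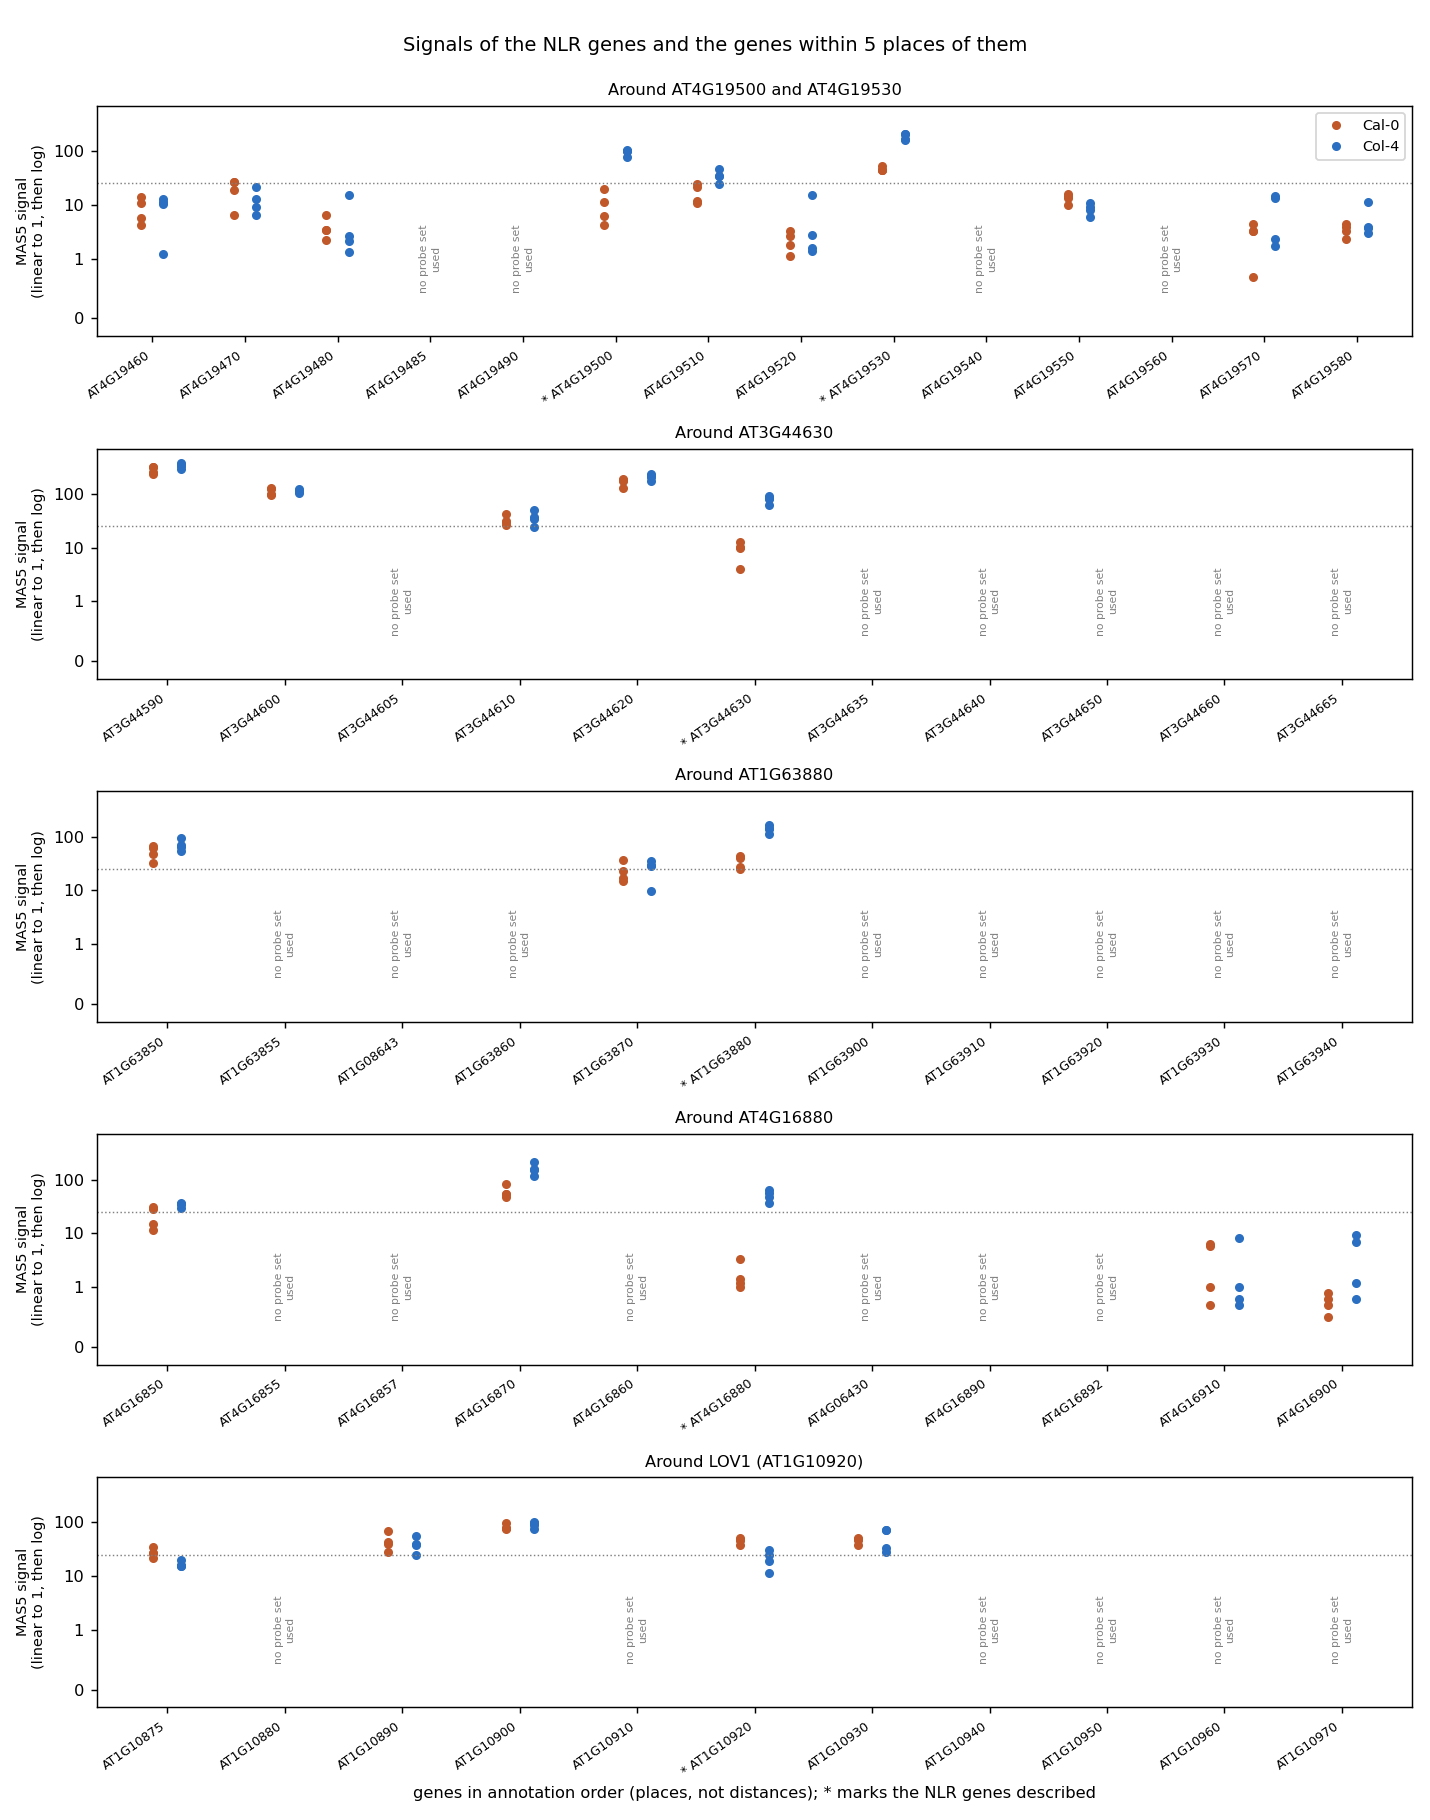
MAS5 signal of the NLR genes (asterisks) and the genes within 5 places of them in annotation order, a point for each array; the axis is linear up to 1 and logarithmic above, and the dotted line marks 25. Differences between the accessions change from gene to gene within a cluster, and of the tested neighbours only AT4G16870 passed in the main comparison.

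Over all neighbourhoods, 27 genes besides the 6 had a single-gene probe set. Of these, 22 lay within 5 places, and 5 were further NLR genes of the same clusters, 7 to 37 places away. Of the 27, 12 were tested, and limma called 1 lower in Cal-0, AT4G16870, and none higher, 8.33% against a background of 4.29% of all tested probe sets called. Blocking on replicate called AT4G19510 too, which makes 2 of 12 lower in Cal-0, against backgrounds of 8.57% called and 4.95% called lower. The median log2 difference of the 12 was -0.19, beside 0.03 over all tested probe sets. Of the 12 differences, 10 were negative and 2 positive. Some negative ones were close to 0, such as CYP71 and RECQ4A at -0.04 (SE 0.14 and 0.23). The share of negative differences over all tested probe sets was not counted. Tested neighbours not yet given were AT4G16850 (-0.45), AT1G63850 (-0.37), AT3G44590 (-0.26) and AT3G44610 (-0.10), none of which passed. The pseudogene AT4G16910 was below the filter, at 0.7 to 6.3 in Cal-0 and 0.7 to 8.1 in Col-4.

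The wider NLR family was counted without the 6 genes. A probe set was found for 99 other NLR genes and 37 of them were tested. Of these limma called 2 lower and 1 higher in Cal-0, or 8.11% of the 37, and 34 did not pass. The background was 4.29% called, 2.75% lower and 1.54% higher. CSA1 (AT5G17880), an NLR gene first described for altered shade responses, was at 18.0, 25.7, 15.0 and 19.0 in Cal-0 and at 45.9, 72.3, 46.0 and 63.3 in Col-4 (log2 difference -1.03, SE 0.16, limma adjusted p = 0.00324). AT5G43740 had means of 32.0 ± 9.03 (Cal-0) and 72.7 ± 18.4 (Col-4; log2 difference -0.89, SE 0.18, limma adjusted p = 0.0184). CW9 (AT1G59620) rose in Cal-0, at 106.9, 105.9, 98.4 and 81.2 against 40.3, 50.5, 42.6 and 46.4 in Col-4 (log2 difference 0.90, SE 0.13, limma adjusted p = 0.0023). These 3 genes had groups without overlap.

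The call of AT5G43740 was lost without Cal-0 replicate 1 or without Cal-0 replicate 3 (highest limma adjusted p = 0.0627). CSA1 and CW9 passed in each fit that tested them on arrays from both 1 to 4 and 5 to 8, also with 1 array left out. Within arrays 1 to 4 alone CSA1 (log2 difference -0.97) and AT5G43740 (-0.63) did not pass. Blocking on replicate, 6 were lower and 1 higher, 18.9% of the 37, while the background in that fit was 8.57% called and 4.95% lower. The added genes were AT1G72890, AT2G14080, AT5G45510 and AT4G19510. AT1G72890 had a log2 difference of -1.12 (SE 0.30, limma adjusted p = 0.0626 in the main fit), with overlapping groups. It was at 4.8 to 49.3 in Cal-0 and 46.4 to 95.8 in Col-4. Its difference was -1.75 within arrays 1 to 4 and -0.50 within arrays 5 to 8. AT5G45510 and CW9 were among the 4 other NLR genes of highest mean signal. AT3G04210 (75.1 ± 35.7 in Cal-0, 106 ± 17.8 in Col-4) and AT5G40060 (87.2 ± 16.3 and 68.1 ± 10.9), the remaining ones of these 4, did not pass.

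**Figure D3:**
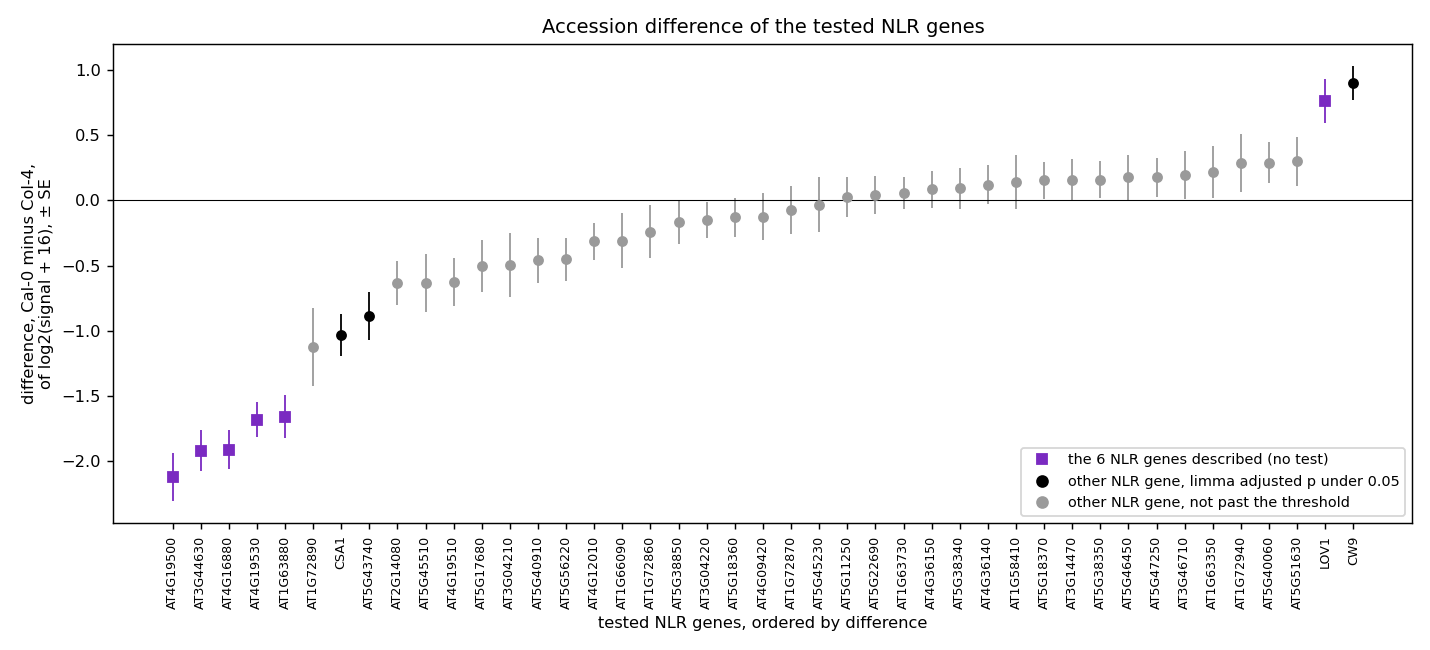
Difference of log2(signal + 16), Cal-0 minus Col-4, with its standard error for each tested NLR gene, in order of size. The 6 genes described are squares, 5 of them at the low end since they were chosen for that, and 29 of the other 37 lie within 0.5 of 0.

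Among the other 37, differences ran from -1.12 to 0.90 with a median of -0.03, and 19 were negative and 18 positive. The middle of these 37 thus lay near that of all tested probe sets, whose median was 0.03. It is not the middle of the whole tested family. The 6 genes left out had been chosen for their difference, and 5 of them were lower in Cal-0. Groups without overlap were seen in 7 of the 37, 18.9% against the background of 10.3%, 6 lower and 1 higher in Cal-0.

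Below the filter, 4 of 62 other NLR genes had groups without overlap, 6.45%, where the background over all probe sets below the filter was 4.52%. AT5G36930 and AT1G69550, singled out after their values were seen, were low in Cal-0. AT5G36930 was at 5.4, 3.6, 3.2 and 2.9 in Cal-0 and at 44.4, 54.7, 31.0 and 38.9 in Col-4. AT1G69550 was at 4.7, 8.6, 5.9 and 11.8 in Cal-0 and at 30.5, 38.9, 34.3 and 54.4 in Col-4. Each Col-4 array of both genes exceeded 25, while the mean over 8 arrays did not. Without the filter both passed, at log2 differences of -1.54 (SE 0.14, limma adjusted p = 0.00055) and -1.22 (SE 0.16, limma adjusted p = 0.00382). That fit called 5 of the 99 other NLR genes, 5.05% against a background of 2.47%. The remaining 2 genes without overlap, AT4G16920 and AT1G63740, did not pass.

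Partners of NLR receptors did not pass the test. SAG101, which pairs with EDS1 to relay signals of one receptor class, had means of 35.7 ± 5.33 (Cal-0) and 25.2 ± 5.00 (Col-4; log2 difference 0.33, SE 0.14, limma adjusted p = 0.283). SGT1A, a co-chaperone that stabilises the receptors, was at 61.3 ± 10.8 and 78.9 ± 29.7 (log2 difference -0.25, SE 0.22, limma adjusted p = 0.691). AT3G48080, listed with them, was at 27.0 ± 5.64 and 23.6 ± 10.5 (log2 difference 0.15, SE 0.18, limma adjusted p = 0.8). With limma 0 of these 3 were called, and 1, SAG101, had an unadjusted limma p under 0.05, at 0.0387. The list named 16 genes, and the rest were not analysed here.

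The arrays numbered 1 to 4 and 5 to 8 in the titles form 2 sets with 2 arrays of each accession. The 6 genes were not chosen on this division. Choosing genes with well separated accessions still favours little spread within an accession, which includes any shift between the sets. Between the sets limma called 6.81% of all tested probe sets and 0 of the 6 NLR genes, a count near that share that says little about them. LOV1 came nearest, higher in arrays 5 to 8 by 0.31 on the log2(signal + 16) scale (SE 0.13, limma adjusted p = 0.162), and it alone had an unadjusted limma p under 0.05. AT4G19500 was lower in arrays 5 to 8 by 0.22 and AT3G44630 higher by 0.22, while AT4G19530 differed by -0.03.

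The accession difference itself was also compared between the sets. The log2 difference of AT4G19500 was -2.07 in arrays 1 to 4 and -2.17 in arrays 5 to 8, that of AT3G44630 -1.94 and -1.90, and that of AT4G16880 -1.93 and -1.90. AT1G63880 moved more, from -1.49 to -1.83, and LOV1 from 0.92 to 0.61. AT4G19530 stood at -1.63 and -1.74. The interaction called 0 of the 6 genes with limma (adjusted p = 0.999 for each), 0 at an unadjusted p under 0.05, and 0.0% of all probe sets, of which 607 had an unadjusted p under 0.05. Its standard errors of 0.26 to 0.36 leave room for moderate differences between the sets.

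Control probe sets at the 3′ and 5′ ends of GAPDH and actin give a measure of RNA integrity, which in arrays 1 to 4 moved with the accession. The log2 ratio of 3′ over 5′ was 1.70 and 1.52 for Cal-0, against 0.955 and 0.927 for Col-4. In arrays 5 to 8, with ratios of 1.88 and 1.96 against 1.66 and 2.39, the accessions overlapped. The log2 differences of the 5 genes low in Cal-0 ran from -2.07 to -1.49 in arrays 1 to 4 and from -2.17 to -1.74 in arrays 5 to 8, and that of LOV1 was 0.92 and 0.61. The part of RNA integrity in these differences was not tested. Adding the ratio to the fit was an alternative chosen once the data had been seen. In it the log2 differences of the 6 genes lay between -2.06 and 0.65, with LOV1 the positive one.

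**Figure D4:**
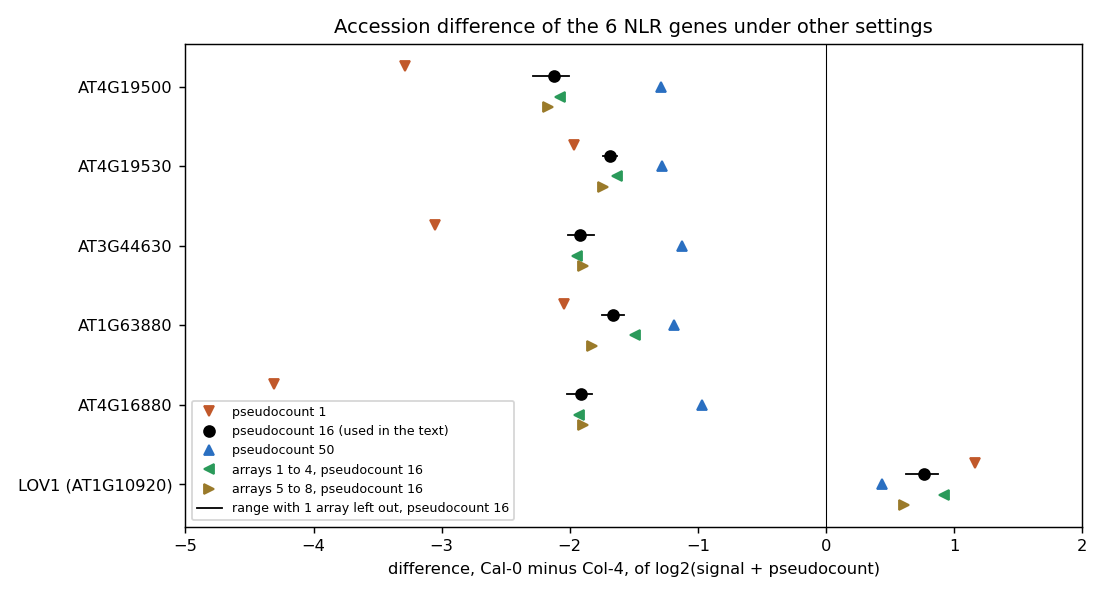
Difference, Cal-0 minus Col-4, of log2(signal + pseudocount) for each NLR gene with pseudocounts of 1, 16 and 50 and within each set of arrays, and the range with each array left out in turn. As the groups of these genes do not overlap, the sign could not change in these settings. The size moved with the pseudocount, most in AT4G16880, from -4.31 to -0.96.

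With the accession means removed, the pairwise correlations of the 6 genes took both signs. Residual standard deviations on the log2(signal + 16) scale ran from 0.14 for AT4G19530 to 0.28 for AT4G19500, beside a median of 0.24 over all tested probe sets. Over the 8 arrays the 5 genes low in Cal-0 correlated pairwise at 0.903 to 0.984, values set by the accession difference they share. After each accession's mean had been taken away, the same 10 pairs ran from -0.77 to 0.64. AT4G19500 and AT1G63880, for example, stood at -0.77 and AT4G19530 and AT1G63880 at 0.64, each over 8 arrays. The pairs of LOV1 with the other genes ran from -0.54 (AT4G19500) to 0.72 (AT3G44630). These values pool the deviations of both accessions and were not tested. With 8 arrays they may be noise, so whether the genes vary together was not settled. AT4G16880, at 1.0 to 3.3 in Cal-0, hardly varied there on this scale.

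The genes whose pattern over the 8 arrays was most like that of each NLR gene are given as a description. Likeness over these arrays to a gene chosen for its accession difference selects for such a difference, so none was tested for it. By Pearson's r of log2(signal + 16), AT4G19530 was matched by AT2G32160 and AT5G23330, both at 0.997, and AT1G63880 by AT5G37360 and AT5G55790, both at 0.994. AT4G16880 was nearest AT1G23130 at 0.993 and AT1G35340 at 0.992. AT3G44630 was nearest AT5G44580 at 0.988 and AT1G76960 at 0.982, and AT4G19500 nearest AT3G25470 and AT2G32580, at 0.988 and 0.987. LOV1 was nearest AT5G61530 at 0.956 and UGT72E2 at 0.955.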

How the data were processed

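The authors deposited linear intensity values per probe set for 1-colour ATH1 arrays; the submitters' processing notes name MAS5, without version or settings. Trimmed array means of 98.9 to 99.2 show a common scaling. Detection calls were not used, and signals near 0 carry little information.

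Genes were named from the platform annotation through gene identifiers to RefSeq (TAIR10.1), of which only names and gene order were used. Leaving out controls, 22746 probe sets remained. Of these 13436 mapped to 1 gene; the 503 with several genes and those with none were left unnamed. For a gene with several probe sets the one of highest mean signal was used. The NLR list held 176 genes, 105 with a probe set.

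Signals were transformed as log2(signal + 16), and the 15165 probe sets averaging 25 or more were tested with limma 3.58.1 under R 4.3.3 (lmFit, eBayes, two-sided, no covariate), with Benjamini-Hochberg adjustment over all of them and a threshold of 0.05. Differences understate the change of low genes. Array sets and the interaction came from a fit of 4 cell means, accession by set. The steps were tested on simulated data. The 6 genes, the lists and the tests were chosen with earlier results of these data known. Named genes were the 6, their neighbours within 5 places and in their clusters, the called and the 4 highest other NLR genes, the partners, and the 2 most alike genes for each.

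Deviations from the accession means of arrays with the same replicate number correlated at 0.278, 0.376, 0.478 and 0.403. The numbers were therefore taken as pairs in an alternative fit, the replicate block, while the main fit did not use them. The labels do not say what the numbers mark. Replicates 1 and 2 correlated as well with unlike numbers, at 0.382 and 0.273. Alternatives tried: pseudocounts (1, 50), filters (none, 100), quantile normalization, median centring, an intensity trend, array weights, the replicate block, the set of arrays as a block or taken apart, each array left out, and the 3′ to 5′ ratio as a covariate.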

Additional observations from a re-analysis of the deposited data

Results flagged for a closer look

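For 51 genes, Dixon's test at the 95% level was applied to each accession's 4 values of log2(signal + 16). In 9 of these 102 groups 1 array stood apart, where about 1 in 20 would by chance. Among the 6 NLR genes, AT4G19500 was at 78.3 in Col-4 replicate 4 against 101.2 to 105.5 in the others, and AT4G19530 at 51.8 in Cal-0 replicate 2 against 44.0 to 44.5. Neither array brought the accessions near each other.

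Among the neighbours, the value of AT1G10900 in Cal-0 replicate 4 was 98.0 against 76.3 to 77.9. The remaining cases were at low signal. AT1G63750 was at 25.5 in Cal-0 replicate 3 against 1.4 to 2.6, AT4G16910 at 8.1 in Col-4 replicate 1 against 0.7 to 1.0, and AT4G19460 at 1.2 in Col-4 replicate 3 against 10.3 to 12.7. AT4G19480 was at 15.2 in Col-4 replicate 1 against 1.3 to 2.6, AT4G19520 at 15.0 in Col-4 replicate 4 against 1.4 to 2.8, and AT4G19580 at 11.2 in Col-4 replicate 2 against 3.0 to 3.9.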

How the results depend on the processing

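The log2 differences of the 6 NLR genes kept their sign in every alternative that included them. The filter of 100 kept only AT4G19530. Since the groups of these genes did not overlap, pseudocounts, left-out arrays and the sets of arrays could not change the sign. The kept sign is therefore no support for the differences. Their size moved by more than the residual spread only with pseudocounts of 1 and 50. The count of called probe sets, 651, was 1299 with the replicate block and 1095 with the set of arrays as a block. It was 406 with the filter of 100, 379 within arrays 1 to 4 and 319 within arrays 5 to 8, and 412 to 672 with an array left out, the lowest without Cal-0 replicate 1 (412) and Col-4 replicate 2 (413). The count of other NLR genes called, 3, was 7 with the replicate block, 6 with the 3′ to 5′ covariate, 5 without the filter, with array weights or with the array set block, 0 with the filter of 100, where fewer genes are tested, and 2 to 4 with an array left out. The count of neighbours, 1, was 2 with the replicate block, with the covariate and within arrays 5 to 8. Beyond the filter, the causes were not tested. The replicate block changed no other call of a named NLR gene, neighbour or partner. Partners stayed at 0 and the 6 genes at 0 for the set of arrays and its interaction in each alternative. Signals near 0 limit the size of the differences, and 62 other NLR genes were too low for the test.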
